A study of Mus musculus with 2 samples.

Results

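The genes Tff1, Sdcbp2, Nrn1, Nrgn, Camk2b and Slc15a2, best known from nervous tissue and epithelia, were followed through the lymphocytes of mouse optic nerve. They are 6 of the 32285 genes in each count table, taken by symbol, with 1 row per symbol. Cells were captured with a 5′ droplet chemistry that counts unique molecular identifiers (UMIs, 1 per captured transcript). There were 2 libraries, 1 from mice given an antibody to PD-1 (anti-PD-1) and 1 from mice given an antibody to TIGIT (anti-TIGIT), so neither condition had a replicate. Both came from 12-week-old Nf1-OPG mice, whose germline carries 1 disrupted Nf1 allele (neo) and whose remaining floxed allele is deleted by GFAP-Cre in neuroglial progenitors, a model of optic glioma. Each library pooled the optic nerves of 10 mice into 1 suspension, and live cells were sorted by exclusion of 7-AAD. The protocol text of both libraries also mentions meningeal dura, and no untreated library was analysed here.

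The genes were chosen because they differed between these same libraries in lymphocytes. Their differences between the libraries are therefore given as a description, without a test. With 1 library per condition, intervals cover counting error only, and antibody, pool and library cannot be told apart.

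After filtering, 13275 anti-PD-1 cells and 7495 anti-TIGIT cells were kept, with a median of 4453 UMIs per anti-PD-1 cell and 4126 per anti-TIGIT cell. Classes were gated on marker UMIs, without clustering. In the anti-PD-1 library they held 1447 CD8 T cells, 327 regulatory T cells (Foxp3-positive), 296 conventional CD4 T cells and 1238 other T cells, which passed the T cell gate and none of the rules for a T cell class. They also held 59 natural killer (NK) cells, 61 group 2 innate lymphoid cells (ILC2), 192 B cells and 436 plasma cells. In the anti-TIGIT library there were 579 CD8 T cells, 81 regulatory T cells, 234 conventional CD4 T cells, 527 other T cells, 92 NK cells, 40 ILC2, 142 B cells and 195 plasma cells. The other T cells are a mixture, with 229 CPM of Cd8a (UMIs per 1000000, over the summed class) in the anti-PD-1 library and 56.5 in the anti-TIGIT library, and with 59.1 CPM (anti-PD-1) and 10.9 CPM (anti-TIGIT) of Foxp3. Gated CD8 T cells had 1107 CPM of Cd8a in the anti-PD-1 library and 867 in the anti-TIGIT library, but the gate itself used Cd8 and Foxp3, so these levels are no check of the class. Of 163 cell barcodes found in both libraries, 149 were kept in both, and 5 of these fell in the same T, NK or ILC2 class in both.

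Tff1 encodes a secreted trefoil peptide of stomach mucus. Sdcbp2 encodes syntenin-2, a PDZ-domain protein that binds phosphoinositides, and Slc15a2 the proton-coupled peptide transporter PEPT2 of kidney, choroid plexus and glia. Nrn1 encodes neuritin, a membrane-anchored protein that promotes neurite growth and is also known from anergic and regulatory T cells. Nrgn encodes neurogranin, a postsynaptic protein that holds calmodulin at low calcium. Camk2b encodes the beta subunit of calcium/calmodulin-dependent kinase II, a kinase of synaptic plasticity. PD-1, encoded by Pdcd1, is an inhibitory receptor that T cells express on activation and keep when antigen persists, and TOX is a transcription factor of that exhausted state.

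In the mm10 assembly (GRCm38, GENCODE vM21) the 6 protein-coding genes lie on 6 chromosomes. Tff1 is at chr17:31161395-31165277, Nrn1 at chr13:36725361-36735131, Nrgn at chr9:37544492-37552904, Camk2b at chr11:5969644-6066362 and Slc15a2 at chr16:36750177-36784962, all on the minus strand. Sdcbp2 is on the plus strand at chr2:151572622-151590005. RefSeq promoter entries (GRCm38.p6) matched 4 of the 6 genes, all but Tff1 and Nrn1. The 250 bases before the RefSeq transcription start are shown for 1 gene found mostly in T cells (Sdcbp2, chr2:151572373-151572622, plus strand) and 1 found in many classes (Slc15a2, chr16:36784963-36785212, minus strand), each 5′ to 3′. Capitals mark the AP-1 motif.

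Sdcbp2: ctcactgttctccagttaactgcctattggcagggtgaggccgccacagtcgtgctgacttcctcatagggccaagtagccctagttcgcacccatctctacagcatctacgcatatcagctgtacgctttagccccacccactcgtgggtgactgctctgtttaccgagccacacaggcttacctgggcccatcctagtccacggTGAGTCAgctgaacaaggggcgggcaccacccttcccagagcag

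Slc15a2: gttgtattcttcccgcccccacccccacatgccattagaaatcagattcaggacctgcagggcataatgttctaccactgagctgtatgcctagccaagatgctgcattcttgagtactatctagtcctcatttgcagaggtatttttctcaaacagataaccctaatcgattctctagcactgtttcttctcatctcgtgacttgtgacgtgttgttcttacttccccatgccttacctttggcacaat

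The 250 bases of each promoter were searched on both strands for TGANTCA (AP-1), TGGAAA (an NFAT core with its flank) and TGTGGT (RUNX). The only match among the 4 promoters was the AP-1 motif of Sdcbp2. Of 27025 mouse promoters of the same length, 6.87% held the AP-1 motif, 18.7% the NFAT motif and 14.2% the RUNX motif. A motif match is a description of the letters and not a measured binding site.

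Tff1, Sdcbp2, Nrn1 and Nrgn were found mostly in T cells, NK cells and ILC2. Of the UMIs in all kept cells, these classes held 85.4% of Tff1, 81.5% of Sdcbp2, 85.1% of Nrn1 and 88.8% of Nrgn in the anti-PD-1 library. In the anti-TIGIT library they held 90.5% of Tff1 (19 of 21 UMIs), 77.6% of Sdcbp2, 88.9% of Nrn1 and 83.9% of Nrgn. The same classes held 17.9% (anti-PD-1) and 13.6% (anti-TIGIT) of the UMIs of all genes in kept cells. Cells that passed the gates of 2 lineages, and so were left unplaced, held a further 10.9% (anti-PD-1) and 4.76% (anti-TIGIT) of the Tff1 UMIs. The other genes were spread more widely, with 24.0% (anti-PD-1) and 20.3% (anti-TIGIT) of the Camk2b UMIs and 25.8% (anti-PD-1) and 8.70% (anti-TIGIT) of the Slc15a2 UMIs in T cells, NK cells and ILC2.

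**Figure D1:**
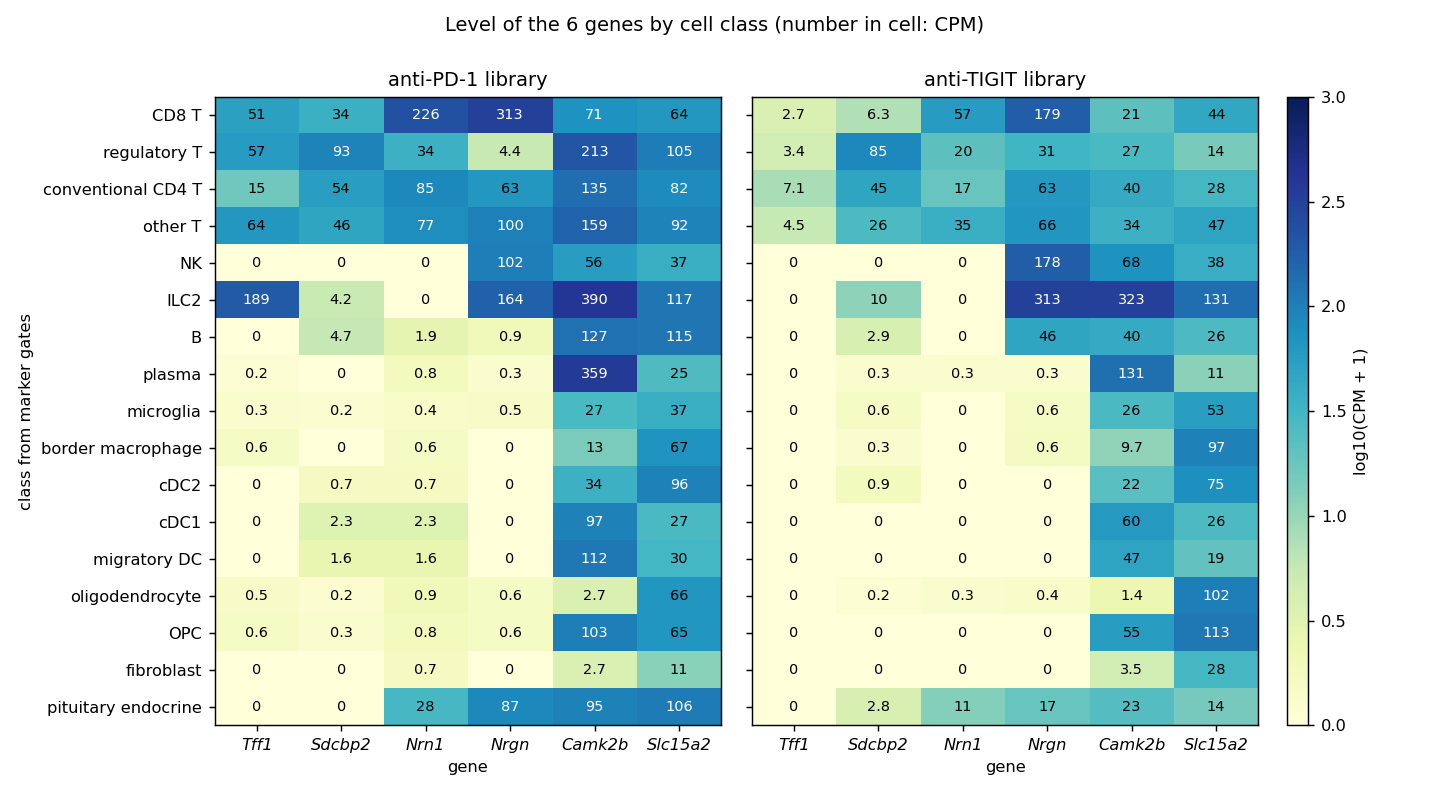
Level of the 6 genes (columns) in each marker-gated class (rows) of the anti-PD-1 library (left) and the anti-TIGIT library (right). Numbers are CPM over the summed class and colour is log10(CPM + 1). Tff1, Sdcbp2, Nrn1 and Nrgn are high only in rows of T, NK or innate lymphoid cells, apart from Nrgn in anti-TIGIT B cells and Nrn1 and Nrgn in the small pituitary endocrine class, where 21 of 22 anti-PD-1 Nrgn UMIs are in 1 cell.

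Oligodendrocytes, which should lack the T cell genes, were read as a measure of free RNA for all but Slc15a2, which glia express. They held 0.489 CPM of Tff1 in the anti-PD-1 library (8 UMIs in 6 of 2168 cells) and none in 1819 cells of the anti-TIGIT library. Nrn1 stood at 0.918 CPM (anti-PD-1) and 0.308 CPM (anti-TIGIT) there, Nrgn at 0.551 CPM (anti-PD-1) and 0.385 CPM (anti-TIGIT), Sdcbp2 at 0.184 CPM (anti-PD-1) and 0.154 CPM (anti-TIGIT) and Camk2b at 2.69 CPM (anti-PD-1) and 1.38 CPM (anti-TIGIT). The Tff1 level of anti-TIGIT regulatory T cells rests on 1 UMI, and its interval (0.086 to 19.0 CPM) reaches down to these values. Oligodendrocytes were sequenced more deeply per cell (median 6838 UMIs in anti-PD-1 and 6327 in anti-TIGIT cells) than CD8 T cells (3870 in anti-PD-1 and 3212 in anti-TIGIT cells).

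Nrgn had the most UMIs of the 6 in CD8 T cells. It stood at 313 CPM (95% Poisson interval 299 to 327) in the anti-PD-1 library and 179 CPM (162 to 198) in the anti-TIGIT library. A Nrgn UMI was seen in 341 of 1447 anti-PD-1 CD8 T cells (23.6%), and in 62 of 579 anti-TIGIT CD8 T cells (10.7%). The distribution had a long tail: single cells held up to 102 Nrgn UMIs in the anti-PD-1 library and 37 in the anti-TIGIT library, and 58 anti-PD-1 and 13 anti-TIGIT cells held 10 or more. Nrgn was also a gene of innate lymphocytes, with 102 CPM in anti-PD-1 NK cells and 178 CPM in anti-TIGIT NK cells (the anti-TIGIT interval overlaps that of CD8 T cells), and with 164 CPM in anti-PD-1 ILC2 and 313 CPM in anti-TIGIT ILC2 (213 to 444, from only 40 cells). In regulatory T cells it was scarce, at 4.43 CPM (6 UMIs) in the anti-PD-1 library and 30.7 CPM (9 UMIs, 8 of them in 1 cell) in the anti-TIGIT library. In anti-TIGIT B cells 32 Nrgn UMIs lay in 4 cells, 16 of them in 1, against 1 UMI in all 192 anti-PD-1 B cells.

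Nrn1 was highest in CD8 T cells, at 226 CPM (215 to 238) in the anti-PD-1 library and 57.4 CPM (47.9 to 68.3) in the anti-TIGIT library, and its interval did not overlap that of the next class in either. It was seen in 25.2% of anti-PD-1 CD8 T cells and 6.22% of anti-TIGIT CD8 T cells, with up to 39 UMIs in an anti-PD-1 cell and 13 in an anti-TIGIT cell. Conventional CD4 T cells had 85.4 CPM of Nrn1 in the anti-PD-1 library and 17.1 CPM in the anti-TIGIT library, and regulatory T cells 33.9 CPM (anti-PD-1) and 20.5 CPM (anti-TIGIT). NK cells and ILC2 held no Nrn1 UMI in either library. A count of 0 (limit 3 UMIs) allows up to 13.9 CPM in anti-PD-1 NK cells and 11.4 CPM in anti-TIGIT NK cells.

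Sdcbp2 instead had its highest levels in CD4 lineage cells, without being confined to them. Regulatory T cells had the highest level in both libraries, 93 CPM (77.5 to 111) in the anti-PD-1 library and 85.3 CPM (55.2 to 126) in the anti-TIGIT library, and conventional CD4 T cells followed with 53.6 CPM (anti-PD-1) and 45.5 CPM (anti-TIGIT). The anti-TIGIT intervals of these neighbouring classes overlapped and the anti-PD-1 intervals did not. Other T cells, a mixture, had 45.7 CPM (anti-PD-1) and 25.7 CPM (anti-TIGIT), with intervals that overlapped those of conventional CD4 T cells. CD8 T cells had 34.5 CPM in the anti-PD-1 library and 6.28 CPM in the anti-TIGIT library. No CD8 T cell held more than 4 Sdcbp2 UMIs.

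Tff1 was nearly a single-library gene, except in conventional CD4 T cells. CD8 T cells held 332 UMIs in 138 anti-PD-1 cells (50.9 CPM, 45.6 to 56.7) and 6 UMIs in 3 anti-TIGIT cells (2.69 CPM, 0.988 to 5.86). Regulatory T cells had 56.8 CPM in the anti-PD-1 library and 3.41 CPM (1 UMI) in the anti-TIGIT library, and other T cells had 64.4 CPM (anti-PD-1) and 4.50 CPM (anti-TIGIT). All 7 Tff1 UMIs of the other T cells of the anti-TIGIT library were in 1 cell. Conventional CD4 T cells had 15.3 CPM (8.38 to 25.7) in the anti-PD-1 library and 7.11 CPM (2.31 to 16.6, 5 UMIs) in the anti-TIGIT library. These intervals overlap, and Tff1 was not called there. The highest level was in anti-PD-1 ILC2, at 189 CPM (138 to 253), where 45 UMIs lay in 7 of 61 cells and 1 cell held 19. The 40 anti-TIGIT ILC2, under the 50 cells set as a minimum for a level, held none, with a limit of 30.3 CPM from a count of 0. NK cells, gamma-delta T cells and B cells held no Tff1 UMI in either library.

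Camk2b was spread over many classes, with CD8 T cells low among them (rank 10 in the anti-PD-1 library and 12 in the anti-TIGIT library, among classes of at least 50 cells). Plasma cells had 359 CPM (344 to 374) in the anti-PD-1 library and 131 CPM (118 to 144) in the anti-TIGIT library, and a Camk2b UMI was seen in 218 of 436 anti-PD-1 and 29 of 195 anti-TIGIT plasma cells. Anti-PD-1 ILC2 had 390 CPM and anti-TIGIT ILC2 323 CPM (40 cells), with intervals that overlapped between the libraries. Among T cells, regulatory T cells had most in the anti-PD-1 library, 213 CPM (189 to 239), against 27.3 CPM (11.8 to 53.8) in the anti-TIGIT library. Outside lymphocytes, oligodendrocyte precursors had 103 CPM (anti-PD-1) and 55.2 CPM (anti-TIGIT) and type 1 dendritic cells 96.6 CPM (anti-PD-1) and 59.7 CPM (anti-TIGIT), above CD8 T cells with 71.3 CPM (anti-PD-1) and 20.6 CPM (anti-TIGIT). Per 100 UMIs of Jchain, an abundant plasma cell transcript, anti-PD-1 CD8 T cells held 21.8 Camk2b UMIs and anti-PD-1 plasma cells 0.774. The number was 15.5 in anti-TIGIT CD8 T cells and 0.307 in anti-TIGIT plasma cells. At the plasma cell ratio, the Jchain UMIs of CD8 T cells would carry 3.54% of their Camk2b UMIs in the anti-PD-1 library and 1.98% in the anti-TIGIT library.

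Slc15a2 was expressed across glia, myeloid cells and lymphocytes. In the anti-PD-1 library the highest levels were those of ILC2 (117 CPM), B cells (115 CPM) and regulatory T cells (105 CPM), and in the anti-TIGIT library, among classes of at least 50 cells, those of oligodendrocyte precursors, oligodendrocytes and border macrophages. Oligodendrocytes had 65.8 CPM (61.9 to 69.8) in the anti-PD-1 library and 102 CPM (96.8 to 108) in the anti-TIGIT library. Border macrophages had 66.5 CPM (anti-PD-1) and 97.2 CPM (anti-TIGIT), and oligodendrocyte precursors 64.8 CPM (anti-PD-1) and 113 CPM (anti-TIGIT). CD8 T cells had 63.9 CPM (57.9 to 70.4) in the anti-PD-1 library and 43.5 CPM (35.3 to 53.1) in the anti-TIGIT library. Oligodendrocyte RNA was present in CD8 T cells, with 2930 CPM over 6 oligodendrocyte markers in the anti-PD-1 library and 1821 CPM in the anti-TIGIT library, and none of the 6 at 0. At the Slc15a2 to Mbp ratio of oligodendrocytes, the Mbp UMIs of CD8 T cells would carry 32.4% of their Slc15a2 UMIs in the anti-PD-1 library and 49.3% in the anti-TIGIT library, and in anti-TIGIT conventional CD4 T cells the same calculation gave more than all of them (101%). The part of free RNA in the Slc15a2 values of T cells was not tested further.

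**Figure D2:**
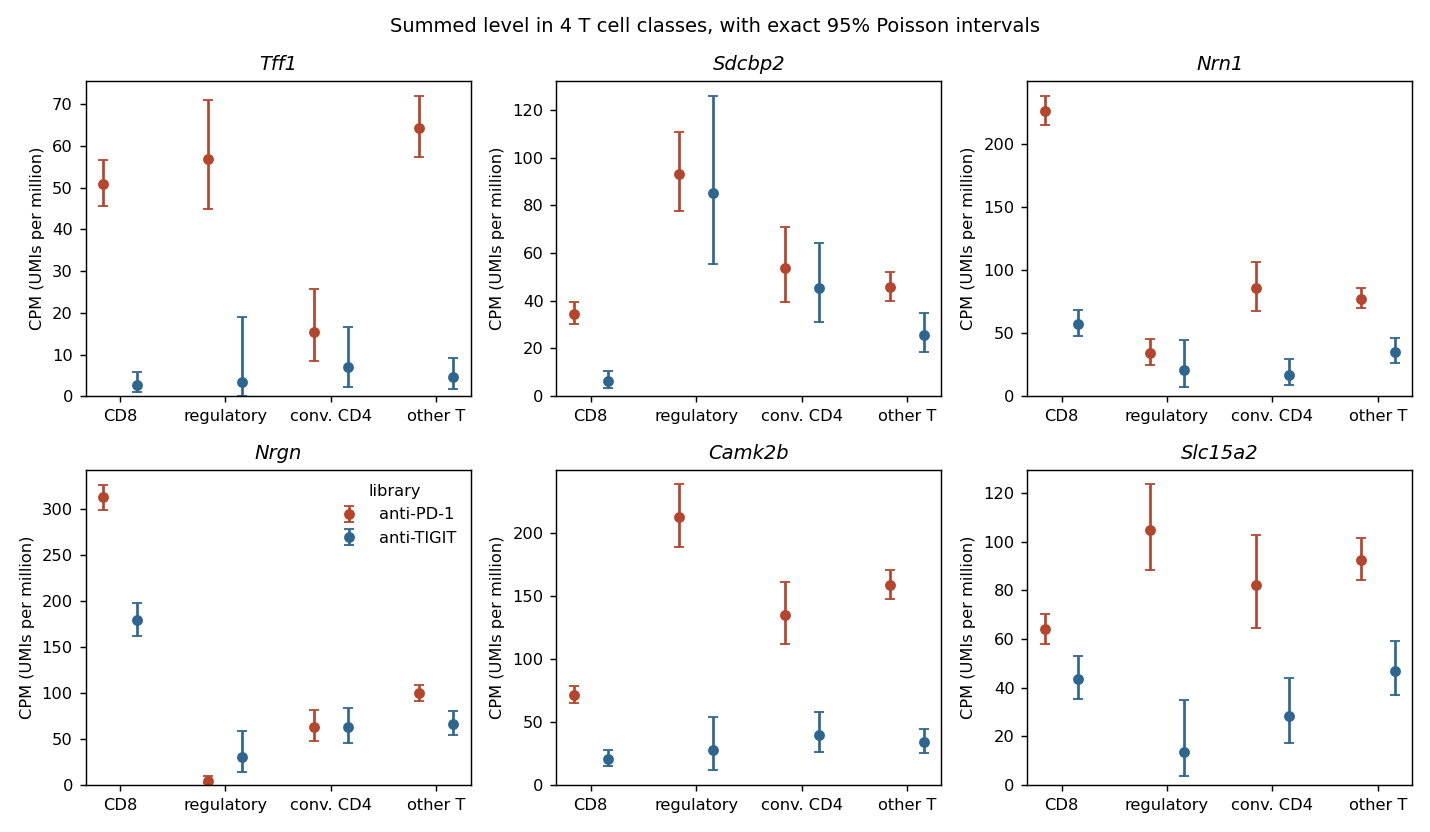
Summed level (CPM, axis from 0) of each gene in 4 T cell classes, anti-PD-1 left of anti-TIGIT, with exact 95% Poisson intervals. In CD8 T cells all 6 points are higher in the anti-PD-1 library, and for Sdcbp2 the intervals overlap in regulatory and conventional CD4 T cells; only Nrgn in regulatory T cells has its anti-PD-1 point below the anti-TIGIT point.

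Between the libraries, the genes differed unequally across classes. A gene was called higher or lower when the ratio of CPM + 5, anti-PD-1 over anti-TIGIT, passed 2-fold and the class held at least 10 UMIs of it over both libraries. In CD8 T cells 4 of the 6 genes were called higher, against 1.59% of the 12532 genes measured there. The log2 ratio, anti-PD-1 over anti-TIGIT, was 4.24 for Tff1 (95% interval 3.10 to 5.70, exact binomial on the UMIs), 2.46 for Sdcbp2 (1.68 to 3.35), 1.98 for Nrn1 (1.72 to 2.25) and 1.79 for Camk2b (1.35 to 2.26). Nrgn, with 0.81 (0.65 to 0.96), and Slc15a2, with 0.55 (0.23 to 0.89), stayed under 2-fold, although Nrgn passed it within cells positive for Xist (log2 ratio of CPM + 5 of 3.45) and within cells positive for Y-linked genes (1.04). Thinning each cell to 1000 UMIs took Camk2b under 2-fold as well, to a log2 ratio of CPM + 5 of 0.93. By size of the ratio of CPM + 5, Tff1 ranked 8th, Nrn1 28th, Sdcbp2 37th and Camk2b 54th of the 12532 genes. These ranks carry no test, since the genes were picked on such values.

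Regulatory T cells gave another order. Tff1, Camk2b and Slc15a2 were called higher, 3 of 6 genes against 6.12% of 9624 genes, with log2 ratios of 4.06 (1.54 to 9.38), 2.96 (1.96 to 4.19) and 2.94 (1.55 to 4.84). Nrgn was called lower, 1 of 6 genes against 3.13% of all, at a log2 ratio of -2.79 (-4.57 to -1.14) that rests on 6 UMIs in anti-PD-1 cells and 9 in anti-TIGIT cells. Sdcbp2, at 0.12 (-0.50 to 0.81), and Nrn1, at 0.73 (-0.50 to 2.25), had intervals that held 0. At the oligodendrocyte ratio of Slc15a2 to Mbp, free RNA would carry 22.2% of the Slc15a2 UMIs of anti-PD-1 regulatory T cells and more than all 4 of those of anti-TIGIT regulatory T cells.

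In conventional CD4 T cells 3 of the 6 genes were called higher, against 2.95% of 9383 genes. These were Nrn1 at a log2 ratio of 2.32 (1.44 to 3.34), Camk2b at 1.76 (1.16 to 2.40) and Slc15a2 at 1.53 (0.80 to 2.32). Nrgn was similar in both, 63.5 CPM in the anti-PD-1 library and 62.6 CPM in the anti-TIGIT library, with a log2 ratio of 0.02 (-0.57 to 0.62). In other T cells Tff1, Camk2b and Nrn1 were called higher, 3 of 6 against 1.85% of 12494 genes, although Nrn1 was near the limit and under it in 5 of 14 alternative settings, the lowest at 0.64 on the log2 scale of CPM + 5.

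Outside T cells the direction varied. Plasma cells had a Camk2b log2 ratio of 1.46 (1.30 to 1.61), and B cells had higher Camk2b (127 CPM in the anti-PD-1 library, 39.9 CPM in the anti-TIGIT library) and higher Slc15a2 (115 CPM in the anti-PD-1 library, 25.7 CPM in the anti-TIGIT library). Nrgn was lower in the anti-PD-1 library in NK cells, at a log2 ratio of -0.80 (-1.61 to -0.05), and in ILC2, at -0.94 (-1.65 to -0.21, with 40 anti-TIGIT cells). Neither was called. A Nrgn UMI was seen in 8 of 59 anti-PD-1 and 22 of 92 anti-TIGIT NK cells. In ILC2 it was seen in 19 of 61 anti-PD-1 and 15 of 40 anti-TIGIT cells. Single cells held 10 of 22 UMIs in anti-PD-1 NK cells and 9 of 31 in anti-TIGIT ILC2. Slc15a2 was lower in the anti-PD-1 library in oligodendrocytes, at -0.64 (-0.75 to -0.52), in border macrophages, at -0.55 (-0.87 to -0.23), and in oligodendrocyte precursors, at -0.80 (-1.28 to -0.30), while it was higher in CD8 T cells. None of these Slc15a2 differences was called.

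**Figure D3:**
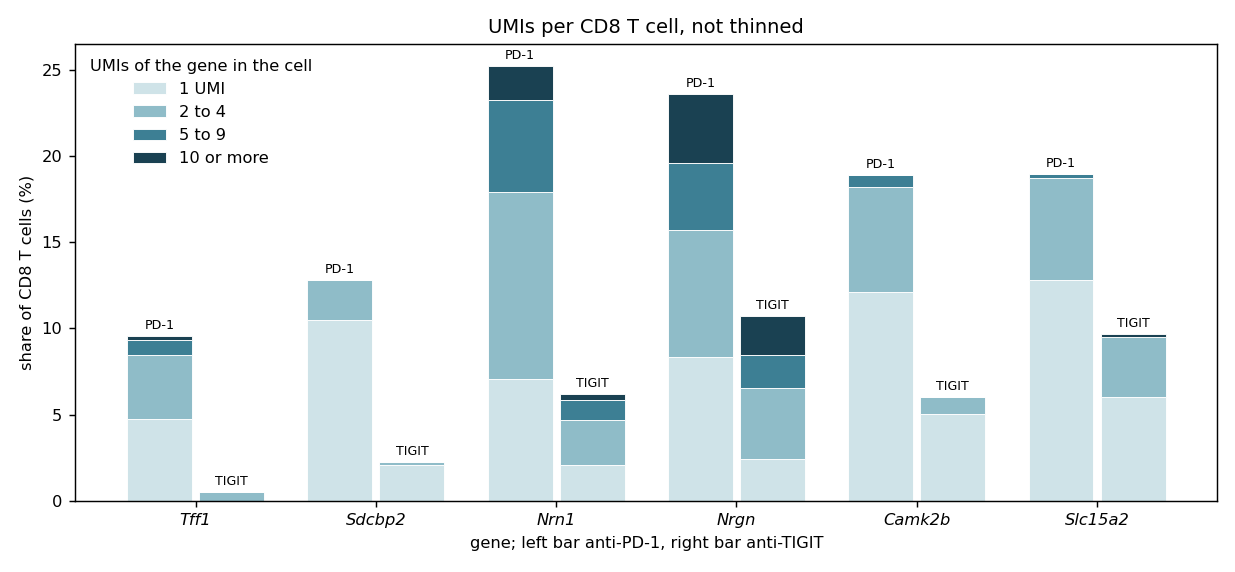
Share of CD8 T cells (%) with 1, 2 to 4, 5 to 9 or 10 or more UMIs of each gene, anti-PD-1 bar left of anti-TIGIT bar, cells not thinned to equal depth. Cells with 10 or more UMIs are seen mainly for Nrgn and Nrn1, whereas Sdcbp2 is almost all single UMIs.

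Thinning every cell to 1000 UMIs removed the difference in depth, and each gene was still seen in a larger share of anti-PD-1 than anti-TIGIT CD8 T cells. In CD8 T cells Nrn1 was then seen in 12.7% of anti-PD-1 cells and 3.13% of anti-TIGIT cells, Nrgn in 11.5% (anti-PD-1) and 5.39% (anti-TIGIT), Camk2b in 6.25% (anti-PD-1) and 3.13% (anti-TIGIT), and Slc15a2 in 5.91% (anti-PD-1) and 3.65% (anti-TIGIT). Tff1 and Sdcbp2 were each seen in 3.75% of anti-PD-1 cells, and in 0% (Tff1) and 0.870% (Sdcbp2) of anti-TIGIT cells. These shares come from 1 random draw and vary between draws. A separate draw at this depth had Tff1 in 41, Sdcbp2 in 57 and Slc15a2 in 106 of 1439 anti-PD-1 CD8 T cells. Among 575 anti-TIGIT CD8 T cells it had Tff1 in 0, Sdcbp2 in 7 and Slc15a2 in 27. At the same depth 0.188% of anti-PD-1 oligodendrocytes held Nrgn and 0.047% Nrn1.

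CD8 T cells were then divided by whether they held a Pdcd1 UMI. Pdcd1-positive cells were 1101 of 1447 anti-PD-1 cells (76.1%) and 186 of 579 anti-TIGIT cells (32.1%), with median depths of 3965 UMIs (anti-PD-1) and 3774 UMIs (anti-TIGIT). Pdcd1-negative cells had 3758 UMIs (anti-PD-1) and 2930 UMIs (anti-TIGIT). Pdcd1 itself stood at 803 CPM in anti-PD-1 CD8 T cells and 264 CPM in anti-TIGIT CD8 T cells. The division sorts cells partly by depth, since a shallow cell can miss a Pdcd1 UMI.

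The same rule was then applied to Pdcd1-positive over Pdcd1-negative CD8 T cells of 1 library. Among anti-PD-1 cells 4 of the 6 genes were called higher in Pdcd1-positive cells, against 3.50% of 12021 genes. Nrgn had 391 CPM in positive cells and 20.4 CPM in negative cells, a log2 ratio of 4.26 (3.72 to 4.85). Tff1 had 63.1 CPM in positive cells and 5.10 CPM in negative cells (3.63, 2.57 to 4.95), Nrn1 274 CPM in positive and 48.8 CPM in negative cells (2.49, 2.13 to 2.86) and Sdcbp2 40.2 CPM in positive and 13.1 CPM in negative cells (1.61, 0.92 to 2.40). Camk2b, with 77.3 CPM in positive and 48.8 CPM in negative cells, had a log2 ratio of 0.66 (0.28 to 1.06). For Slc15a2, with 63.5 CPM in positive and 65.6 CPM in negative cells, it was -0.05 (-0.39 to 0.31). With every cell thinned to 1000 UMIs and divided again by the thinned Pdcd1 UMIs, none of the 6 stayed at or above 2-fold. The log2 ratios of CPM + 5 were then 0.86 for Nrn1, 0.69 for Tff1, 0.61 for Nrgn and 0.29 for Sdcbp2. Thinning also removes Pdcd1 UMIs, so cells that are positive at full depth can count as negative. In a separate draw at this depth 729 cells were positive and 710 negative, against 1101 and 346 unthinned. The part of this relabelling in the smaller ratios was not tested.

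Within the anti-TIGIT library, Nrgn and Nrn1 were again called higher in Pdcd1-positive cells (2 of 6 genes, against 4.26% of 9857 genes). Nrgn had 397 CPM in positive cells and 18.0 CPM in negative cells (log2 ratio 4.47, 3.86 to 5.14), and Nrn1 125 CPM in positive and 7.81 CPM in negative cells (4.0, 3.07 to 5.09). Both stayed above 2-fold in this library after thinning to 1000 UMIs. Camk2b and Slc15a2 were called lower, 2 of 6 genes against 1.89% of all, with 7.39 CPM in positive and 30.4 CPM in negative cells for Camk2b and 20.1 CPM in positive and 60.9 CPM in negative cells for Slc15a2. Thinning to 1000 UMIs brought Slc15a2 under 2-fold, to -0.51 on the log2 scale of CPM + 5, and adding 20 CPM in place of 5 brought Camk2b to -0.88. So at full depth Camk2b stood higher in Pdcd1-positive than Pdcd1-negative cells after anti-PD-1, under 2-fold and not called, and lower after anti-TIGIT. In a separate draw of 1000 UMIs per cell, divided by the thinned Pdcd1 UMIs, the anti-PD-1 difference was not seen. Camk2b was then found in 44 of 729 positive and 44 of 710 negative anti-PD-1 cells. In the anti-TIGIT library it was found in 1 of 99 positive and 12 of 476 negative cells. The contrast between the libraries was not tested.

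The libraries were then compared within Pdcd1-positive cells and within Pdcd1-negative cells. In Pdcd1-positive CD8 T cells Nrgn had 391 CPM in the anti-PD-1 library and 397 CPM in the anti-TIGIT library, a log2 ratio of -0.02 (-0.18 to 0.14). These cells were not matched for Pdcd1 UMIs, since 369 of 1101 anti-PD-1 and 34 of 186 anti-TIGIT cells held 6 or more. With 3 to 5 Pdcd1 UMIs, Nrgn was lower in anti-PD-1 cells, 338 CPM (312 to 367) against 461 CPM (375 to 562). With 1 to 2 and with 6 or more, the intervals of the libraries overlapped. The other 5 genes were called higher in anti-PD-1 cells, 5 of 6 against 1.88% of 11888 genes. Their log2 ratios were 3.67 for Sdcbp2 (2.10 to 5.96), 3.39 for Camk2b (2.33 to 4.71), 3.32 for Tff1 (2.18 to 4.77), 1.66 for Slc15a2 (1.0 to 2.41) and 1.14 for Nrn1 (0.86 to 1.42). The ratios of Sdcbp2, Camk2b and Tff1 rest on few anti-TIGIT UMIs. In anti-TIGIT cells with 1 to 2, 3 to 5 and 6 or more Pdcd1 UMIs, Sdcbp2 had 0, 2 and 1 UMIs. Tff1 had 2, 0 and 4 UMIs in these groups, and Camk2b 7, 0 and 0. In Pdcd1-negative cells only Nrn1 was called, 1 of the 6 (5 had enough UMIs) against 2.01% of 10049 genes, with 48.8 CPM in the anti-PD-1 library and 7.81 CPM in the anti-TIGIT library. Tff1 had 7 UMIs in anti-PD-1 and 0 in anti-TIGIT cells there, too few to be counted.

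**Figure D4:**
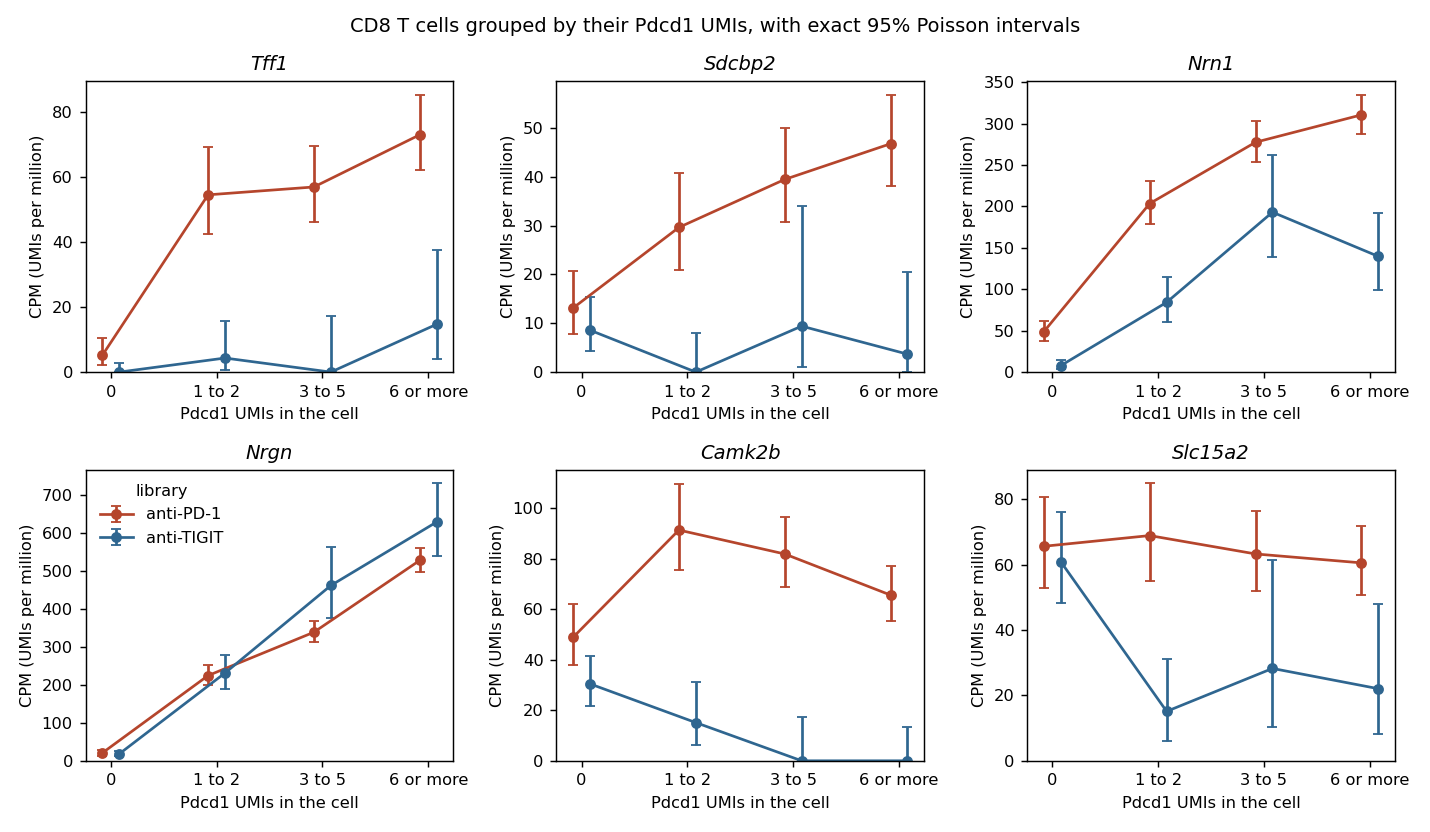
CPM (axis from 0) of each gene in CD8 T cells grouped by the number of Pdcd1 UMIs in the cell, anti-PD-1 and anti-TIGIT libraries, with exact 95% Poisson intervals. The Nrgn lines of both libraries climb, reaching 527 CPM (anti-PD-1) and 629 CPM (anti-TIGIT) at 6 or more Pdcd1 UMIs. In each group with a Pdcd1 UMI the anti-PD-1 point of Nrgn is the lower. For every gene but Nrgn the anti-PD-1 points lie above the anti-TIGIT points in every group.

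The level of Nrgn increased with each step of Pdcd1 UMIs in both libraries. In cells with 0, 1 to 2, 3 to 5 and 6 or more Pdcd1 UMIs it was 20.4, 224, 338 and 527 CPM in the anti-PD-1 library and 18.0, 231, 461 and 629 CPM in the anti-TIGIT library. Nrn1 went 48.8, 203, 277 and 311 CPM in the anti-PD-1 library and 7.81, 84.2, 193 and 140 CPM in the anti-TIGIT library. Slc15a2 stayed between 60.5 and 68.9 CPM in all 4 groups of anti-PD-1 cells. The deepest group was the highest in Pdcd1 UMIs, with a median of 4917 UMIs per cell in the anti-PD-1 library and 8062 in the anti-TIGIT library (34 cells).

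Nrn1 and Nrgn were often seen in the same cells. With each CD8 T cell thinned to 1000 UMIs in a separate random draw, Nrgn was seen in 25.4% of Nrn1-positive and 9.86% of Nrn1-negative anti-PD-1 cells, and in 41.2% (7 of 17) and 4.66% of the anti-TIGIT cells. Tff1-positive cells of the anti-PD-1 library carried Nrn1 more often than Tff1-negative cells, 31.7% (13 of 41) against 12.0%, while Nrgn was seen in 17.1% (7 of 41) of Tff1-positive and 11.7% of Tff1-negative cells. Sdcbp2-positive cells stood closer to the rest, with Nrn1 in 17.5% of them and in 12.4% of Sdcbp2-negative cells, and with Nrgn in 12.3% of them and in 11.8% of Sdcbp2-negative cells.

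Grouping CD8 T cells by the T cell receptor beta segment with most UMIs showed that cells with a few segments held much of these UMIs. In the anti-PD-1 library 250 cells (17.3%) carried Trbv3, 89.6% of them Pdcd1-positive. These cells held 35.8% of the Tff1 UMIs of CD8 T cells, 29.6% of the Nrn1, 30.1% of the Camk2b and 22.5% of the Nrgn UMIs. Slc15a2, which did not differ by Pdcd1 in this library, gave a similar picture by cells. Among cells with a segment, Trbv3 was that of 27.0% of Slc15a2-positive and 16.1% of Slc15a2-negative cells. The shares were 26.1% and 15.5% for Nrn1, and 23.6% and 16.5% for Nrgn. Tff1 stood at 108 CPM in Trbv3 cells and at 3.22 CPM in the 65 Trbv16 cells of the same library, most of which were also Pdcd1-positive (80%). Of the Trbv3 cells, 132 carried Xist without a Y-linked UMI and 24 a Y-linked UMI without Xist, as in cells of female and of male mice.

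In the anti-TIGIT library 42 cells (7.25%) carried Trbv16, 81.0% of them Pdcd1-positive against 32.1% of all. They held 58.6% of the Nrn1 UMIs and 27.6% of the Nrgn UMIs of CD8 T cells, and Trbv13-1 cells (63 cells) another 33.8% of the Nrgn UMIs. Nrn1 stood at 48.4 CPM (27.1 to 79.8) in anti-PD-1 Trbv16 cells, against 327 CPM (257 to 410) in anti-TIGIT Trbv16 cells, opposite in order to all CD8 T cells. Trbv3 cells had 396 CPM of Nrn1 in the anti-PD-1 library, against 21.2 CPM (3 UMIs) in the anti-TIGIT library, where they were 34 cells, 26.5% of them Pdcd1-positive. Trbv19 cells, 84.9% Pdcd1-positive in the anti-PD-1 library and 23.2% in the anti-TIGIT library, had 529 CPM of Nrgn in anti-PD-1 cells and no Nrgn UMI in the 56 anti-TIGIT cells. A shared segment does not make a clone, and no paired receptor sequences were used here.

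**Figure D5:**
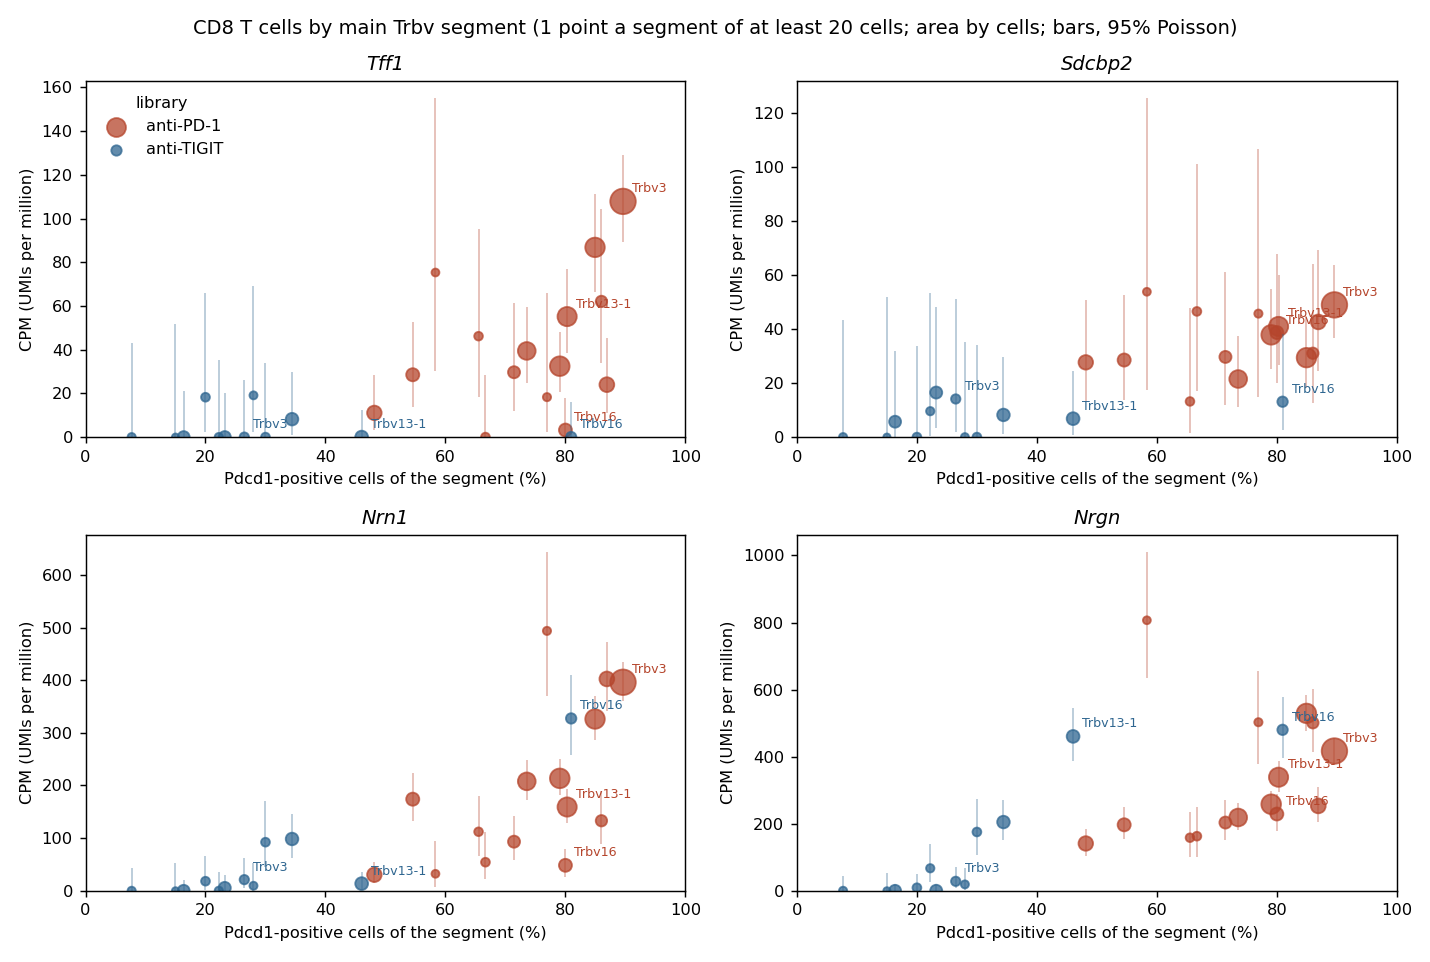
CPM of Tff1, Sdcbp2, Nrn1 and Nrgn in CD8 T cells by main Trbv segment, against the share of Pdcd1-positive cells of the segment (%). Each point is 1 segment with at least 20 cells in the library, its area scales with the number of cells, and bars are exact 95% Poisson intervals. The anti-PD-1 points lie at 48.1% or more Pdcd1-positive cells and the anti-TIGIT points at 46.0% or less, except Trbv16 at 81.0%, which has the highest Nrn1 of that library.

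The sexes of the pooled mice gave a further division. Among CD8 T cells with Xist and no Y-linked UMI, Tff1 stood at 90.3 CPM in 411 anti-PD-1 cells and at 0 UMIs in 61 anti-TIGIT cells, and Nrn1 at 322 CPM (anti-PD-1) and 0 UMIs (anti-TIGIT). Among those with a Y-linked UMI and no Xist, Tff1 stood at 31.3 CPM in 332 anti-PD-1 cells and 4.44 CPM in 199 anti-TIGIT cells, and Nrn1 at 224 CPM (anti-PD-1) and 76.5 CPM (anti-TIGIT). Sdcbp2 had 46.8 CPM (anti-PD-1) and 4.02 CPM (anti-TIGIT, 1 UMI) in Xist-positive cells and 27.9 CPM (anti-PD-1) and 5.55 CPM (anti-TIGIT) in Y-positive cells. Tff1, Nrn1 and Sdcbp2 thus stood higher in anti-PD-1 cells of either sex. Nrgn did so too, with 358 CPM (anti-PD-1) and 28.2 CPM (anti-TIGIT, 7 UMIs) in Xist-positive cells and 366 CPM (anti-PD-1) and 175 CPM (anti-TIGIT) in Y-positive cells, log2 ratios of CPM + 5 of 3.45 and 1.04. Slc15a2 had 86 CPM (73.2 to 100) in anti-PD-1 and 117 CPM (78.2 to 168) in anti-TIGIT Xist-positive cells, intervals that overlap. In Y-positive cells it had 51.3 CPM (41.2 to 63.0) in the anti-PD-1 library and 29.9 CPM (19.7 to 43.6) in the anti-TIGIT library.

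Most relatives of these genes were scarce in CD8 T cells or under 2-fold apart between the libraries. Of the trefoil genes only Tff1 reached 10 UMIs, with Tff2 at 0 UMIs in both libraries and Tff3 at 1 UMI in anti-PD-1 and 0 in anti-TIGIT cells. Syntenin-1 (Sdcbp) was abundant and similar, with 707 UMIs in the anti-PD-1 library and 274 in the anti-TIGIT library and a log2 ratio of -0.18 (-0.39 to 0.02). Pcp4, which like neurogranin binds calmodulin through an IQ motif, had 28 UMIs in anti-PD-1 and 1 UMI in anti-TIGIT cells, a log2 ratio of 3.26 (0.66 to 8.61) that was not called, since that of CPM + 5 was 0.77. Of 5 measured genes of CaM kinase II and its inhibitors only Camk2b was called higher. Camk2d had 61.9 CPM in anti-PD-1 and 77.2 CPM in anti-TIGIT cells, Camk2g 25.1 CPM in anti-PD-1 and 41.7 CPM in anti-TIGIT cells, and the inhibitor Camk2n1 48.6 CPM in anti-PD-1 and 61.9 CPM in anti-TIGIT cells, each with a log2 interval below 0. Camk2a had no UMI. Of 8 calmodulin, calcineurin and CaM kinase IV genes none was called, with a median log2 ratio of -0.24, against 0.00 over all genes. The log2 interval lay below 0 for 5 of the 8 and above 0 for 1. Of 8 inhibitory receptors and exhaustion factors, a list that overlaps the Pdcd1 division, 6 were called higher, against the 1.59% of all 12532 genes given above, with a median of 1.22. Among them Lag3 had 405 CPM in the anti-PD-1 library and 125 CPM in the anti-TIGIT library, and Havcr2 73.3 CPM (anti-PD-1) and 29.6 CPM (anti-TIGIT).

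Markers of neurons and epithelium were examined beside the 6 genes. In CD8 T cells 7 neuron markers summed to 26.7 CPM in the anti-PD-1 library and 8.98 CPM in the anti-TIGIT library. Of the 7, 6 had a UMI in anti-PD-1 and 5 in anti-TIGIT cells, and Map2 gave 136 of the 174 UMIs (anti-PD-1) and 13 of the 20 UMIs (anti-TIGIT). Rbfox3, which marks neuronal nuclei, had 0 UMIs in anti-PD-1 and 1 UMI in anti-TIGIT CD8 T cells, and the synaptic Snap25 had 4 UMIs in anti-PD-1 and 0 in anti-TIGIT cells. The 5 epithelial markers summed to 31.3 CPM in the anti-PD-1 library and 33.7 CPM in the anti-TIGIT library, nearly all Cdh1 and Epcam, and the keratin genes Krt8 and Krt19 had no UMI in either library. The neuron sum was thus higher in anti-PD-1 cells, as the 6 genes were, and its part in their values was not tested.

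The genes whose levels were most like each member were found by Pearson correlation of log2(CPM + 5) over 29 sums of class and library, among 16018 genes; the sums share libraries and depth, so r is a description. Tff1 was most like Ccl1 (r = 0.88), a chemokine gene, Neu3 (0.88) and Areg (0.88), the gene of amphiregulin. Each of these genes was highest in anti-PD-1 ILC2 (61 cells), as Tff1 was, so their r values lean on that sum. Areg is also a marker of the ILC2 gate. Sdcbp2 was most like Izumo1r (0.97), which encodes folate receptor 4 of regulatory T cells, then Trbv13-3 (0.96) and A430093F15Rik (0.95). Nrn1 was most like the receptor segments Trbv3 (0.97), Trav7-3 (0.96) and Trav1 (0.95). Nrgn was most like Sytl3 (0.91), Apol7e (0.90) and Pde7a (0.90). Camk2b, with Trabd (0.76) nearest, and Slc15a2, with Mier2 (0.74) nearest, had no close match. Among the members themselves Nrn1 and Sdcbp2 were the closest pair (0.81).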

How the data were processed

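The deposited matrices hold UMI counts per gene and cell, 1 matrix for each of the 2 libraries, made with Cell Ranger 8.0.0 (anti-PD-1) and 8.0.1 (anti-TIGIT) on mm10, per the submitters' processing notes. Total counts were 85031565 UMIs in 13997 barcodes (anti-PD-1) and 40733655 UMIs in 7915 barcodes (anti-TIGIT). Cells under 200 genes or over 10% mitochondrial UMIs were dropped. Scrublet (scanpy 1.11.5, 0.8% expected doublets per 1000 cells, Python 3.11.15) then removed 576 anti-PD-1 and 155 anti-TIGIT cells.

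Classes came from marker gates; cells passing the gates of 2 lineages (841 anti-PD-1 and 251 anti-TIGIT) or none (3010 anti-PD-1 and 1427 anti-TIGIT) were left out. Gate thresholds were set after depth and free RNA had been seen, and the members, gene lists and markers were chosen with earlier results of these data known. UMIs were summed per class and library and divided by the summed total (CPM), with exact Poisson intervals; shares have exact binomial intervals, and ratios exact conditional binomial intervals at 95%. A call needs a 2-fold ratio of CPM + 5 and at least 10 UMIs. There are no replicates, so no test was run. The limit for a count of 0 is 3 counts. The ratio step was tested on simulated data. Named genes were the 6 members, those of the fixed lists, and the 3 most correlated genes of each member. Levels are given for classes of at least 50 cells, and any smaller class with a level printed is given with its number of cells. Alternatives were other cell filters, gates, scalings, pseudocounts, depths, sexes and receptor segments.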

Additional observations from a re-analysis of the deposited data

How the results depend on the processing

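Over the 7 classes CD8 T, regulatory T, conventional CD4 T, other T, NK, B and plasma cells, 16 pairs of member and class were called higher in anti-PD-1 cells, and the alternatives gave 15 to 21; of all genes 1.48% (plasma cells) to 6.39% (NK cells) were called higher in these classes. Nrgn was called lower in regulatory T cells, as were 3.13% of all genes there, and in B cells, as were 4% of 9516 genes. ILC2 are not among the 7, and had 1 of 4 measured members called higher, against 14% of 4401 genes. The CD8 T cell count of 4 was 3 to 5 under every alternative run, and the conventional CD4 count of 3 was 3 or 4. The regulatory T count of 3 became 5 under the stricter gate, which left 63 anti-PD-1 and 17 anti-TIGIT cells. The count of members at least 2-fold higher in Pdcd1-positive CD8 T cells was 4 in the anti-PD-1 library and 0 after thinning to 1000 UMIs. Thinning also removed Pdcd1 UMIs, so cells positive at full depth could count as negative. In the anti-TIGIT library the count was 2, and 0 in Xist-positive cells alone, of which that library had 61. The cause of these shifts was not tested. Of 468 single log2 ratios under alternatives, 368 lay inside the 95% interval of the value given and 100 outside, most often for Xist-positive cells (23), thinned cells (19) and the stricter gate (16), and no value of at least 2-fold changed sign. The Camk2b log2 ratio in CD8 T cells was 0.93 after thinning, and in Xist-positive conventional CD4 T cells 0.02. Leaving out Trbv3 and Trbv16 cells in both libraries, an alternative chosen after seeing the data, kept the CD8 count at 4. By level, 4 members had their highest class among T cells, NK cells and ILC2 in both libraries; by share of cells it was 3 unthinned and 4 at 500, 1000 or 2000 UMIs. No regulatory T or all-class value could be given for Xist-positive cells alone, since too few cells remained. No paired analysis was possible because each condition has 1 library.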
